A study of Mus musculus with 3 samples.

Results

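A set of 9 regulators and products of the Sertoli cell lineage was followed across the cell types of the newborn mouse testis: the transcription factor genes Sox9, Sox8, Dmrt1, Gata4, Wt1, Nr5a1 and Nr0b1, the hormone receptor gene Fshr, and Ptgds, which encodes a prostaglandin-making enzyme. The genes were listed by symbol, 9 of the 27998 genes measured, and all 9 were present in the gene table. Testes of male mice at postnatal day 3 (3.5 days post partum at dissection) were dissociated into single cells, and their polyadenylated RNA was read with 10x Genomics 3′ chemistry, in which each captured molecule is counted as 1 unique molecular identifier (UMI). The 3 libraries were Cdk2-WT (Cdk2 +/+), Cdk2-HET (Cdk2 +/YS) and Cdk2-Y15S (Cdk2 YS/YS), where YS is an allele of the cell-cycle kinase gene Cdk2 that replaces a tyrosine of the protein by serine. All mice were untreated and came from crosses of heterozygotes on a mixed background of the strains B6(Cg)-Tyrc-2J/J and FVB/NJ. The labels do not say how many animals went into a library. With 1 library per genotype there was no replicate and no test of genotype: genotype, animal, background and library preparation cannot be told apart, and every interval below is a 95% interval for counting error only.

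Sertoli cells are the supporting cells of the seminiferous tubule, and their fate is set in the fetal gonad. WT1 and GATA4 prepare the somatic gonad and NR5A1 drives both Sertoli and steroid-producing fates. SOX9, with SOX8 as a partly redundant relative, carries out the Sertoli programme, which includes Amh, the hormone gene that removes the Müllerian ducts. DMRT1 maintains male identity after birth and also acts in germ cells, whereas NR0B1 (DAX1) restrains NR5A1. FSHR receives follicle-stimulating hormone and raises cAMP, and PTGDS makes prostaglandin D2, a signal known to promote nuclear SOX9 in the fetal testis.

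In Sertoli cells Ptgds and Fshr were the members with the largest differences between libraries, so the DNA just upstream of their RefSeq starts is shown. RefSeq promoter windows (GRCm38.p6) were found for 4 of the 9 members, Sox8, Nr0b1, Fshr and Ptgds. The Fshr stretch is chr17:89200676-89200925 on the minus strand, and the Ptgds stretch is chr2:25469843-25469999 on the minus strand, without the 93 bases next to the RefSeq start that GENCODE lists as exon. The Ptgds stretch lies inside the longer GENCODE gene interval given below, which starts further upstream, but in no GENCODE exon of the gene. Capitals mark matches to the motifs searched, on both strands. For SOX factors ACAAT was searched, and also its longer form AACAAT, which contains it. For GATA factors the letters were GATAA, and for NR5A1 they were AAGGTCA. The E-box was searched as CACGTG and the TATA box as TATAAA.
Fshr: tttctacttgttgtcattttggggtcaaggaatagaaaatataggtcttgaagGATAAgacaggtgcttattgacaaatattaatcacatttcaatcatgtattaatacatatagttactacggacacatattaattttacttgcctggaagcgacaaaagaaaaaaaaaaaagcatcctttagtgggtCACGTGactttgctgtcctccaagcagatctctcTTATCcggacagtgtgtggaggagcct
Ptgds: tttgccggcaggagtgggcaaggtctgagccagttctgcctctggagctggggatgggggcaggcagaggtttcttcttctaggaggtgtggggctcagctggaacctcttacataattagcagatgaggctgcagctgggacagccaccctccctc
The Fshr window held GATAA starting 197 bases before the start and, on the opposite strand, 27 bases before it, and CACGTG 61 bases before it. No motif of the set was found in the 250-base Ptgds window, which says only that these letters are not in it. Over all 27025 promoter windows of the same length, GATAA was present in 23.0%, CACGTG in 6.05%, ACAAT in 28.3%, AACAAT in 9.65%, TATAAA in 13.0% and AAGGTCA in 4.05%. A match is a description of letters and not evidence of binding.

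The libraries held 4403 to 5061 cells and 28651691 to 32025077 UMIs, with a median of 5570 to 5908 UMIs per cell. Between 27 and 32 cell barcodes were shared by each pair of libraries. Cells were classed by summed UMIs of a few genes. A Sertoli cell had at least 3 UMIs of Amh, Cldn11 and Inha together and few collagen or steroidogenic UMIs, which gave 2326 cells in Cdk2-WT (48.9% of kept cells), 2083 in Cdk2-HET (43.9%) and 1467 in Cdk2-Y15S (35.1%), at median depths of 6188, 6297 and 6227 UMIs. Mesenchymal cells (collagen-rich, 1778, 2225 and 2159) and Leydig cells (43, 41 and 23) were classed in the same way. Mesenchymal cells could hold at most 2 UMIs of the Sertoli gate genes, so low levels of other Sertoli genes in them are partly set by that limit. Germ cells were the 69 Cdk2-WT and 72 Cdk2-Y15S cells of the deposited germ cell table, so germ cells of Cdk2-HET were not analysed here. Of 10 Sertoli markers outside the gate, 8 were highest in the Sertoli class (Cst8 and Mmd2 were highest in Leydig cells), as were 8 of 8 mesenchymal, 4 of 6 Leydig (not Hsd17b3 and Thbs2) and 6 of 6 germ markers in their own class. Just inside the Sertoli gate, at exactly 3 UMIs, 62, 18 and 29 cells (in the library order above) held Ptgds at 666, 361 and 428 CPM, the UMIs of a gene per 1000000 UMIs, and just outside it, at 2 UMIs, the 49, 30 and 37 cells held 600, 143 and 317 CPM.

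The 7 transcription factor genes were present in the Sertoli cells of every library, within 1.19-fold of the Cdk2-WT level, whereas Ptgds was lower in Cdk2-HET and lower again in Cdk2-Y15S, and Fshr was lower in Cdk2-Y15S. A 1.5-fold difference was used as the fixed size to count. Of the 9 genes, 2 (Fshr and Ptgds) were at least 1.5-fold lower and 0 at least 1.5-fold higher in Cdk2-Y15S than in Cdk2-WT Sertoli cells. Over all 8747 genes with at least 200 UMIs, 2.07% were that much lower and 5.27% that much higher. The lower Ptgds level in Cdk2-Y15S was already known when the 9 genes were chosen, so the count is a description only. The median log2 ratio was 0.02 for the 9 genes and 0.06 for all genes, with an SD over genes of 0.39. Between Cdk2-HET and Cdk2-WT, 0 of the 9 passed 1.5-fold either way, against 0.935% lower and 1.56% higher among 8984 genes. Both comparisons use the same Cdk2-WT library. Between Cdk2-Y15S and Cdk2-HET, the same 2 genes passed 1.5-fold lower and 0 higher, against 1.58% and 2.27% of 8676 genes.

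**Figure D1:**
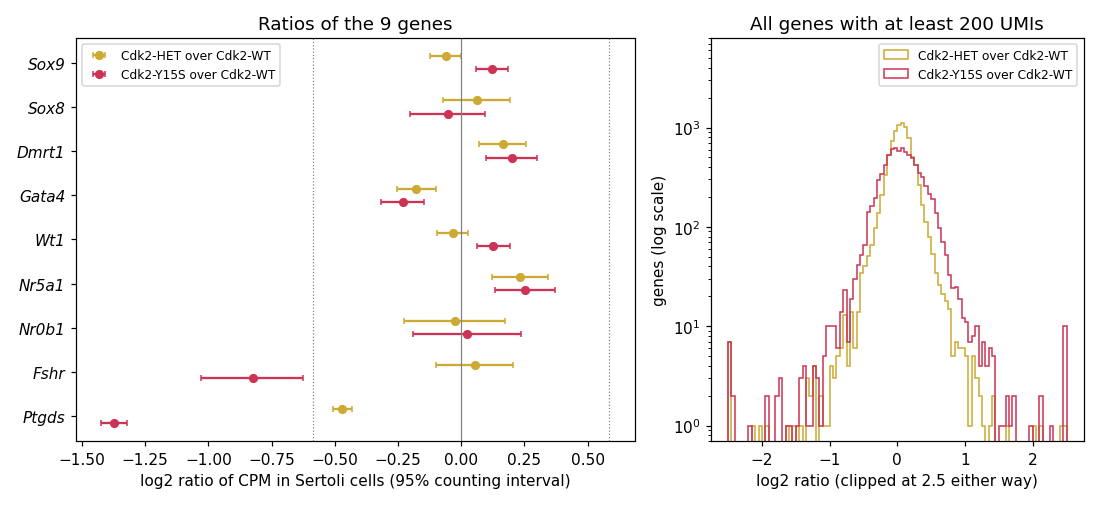
Left: log2 ratio of CPM in Sertoli cells of Cdk2-HET and Cdk2-Y15S over Cdk2-WT for each of the 9 genes, with 95% counting intervals and dotted lines at 1.5-fold; Fshr and Ptgds of Cdk2-Y15S lie beyond the lower line, at -0.82 and -1.37. Right: the same ratios for all genes with at least 200 UMIs, as numbers of genes on a log axis, with ratios beyond 2.5 placed in the end bins.

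Sox9, the gene of the central Sertoli factor (chr11:112782224-112787760, plus strand), was at 301 CPM (292 to 310) in Cdk2-WT Sertoli cells, 288 (279 to 297) in Cdk2-HET and 327 (316 to 338) in Cdk2-Y15S. The log2 ratio of Cdk2-Y15S to Cdk2-WT was 0.12 (0.06 to 0.19), and 58.4% of all genes had a lower ratio, so Sox9 sat near the middle of the transcriptome. At least 1 Sox9 UMI was found in 75.2%, 72.4% and 81.7% of Sertoli cells, against 8.61%, 8.54% and 6.86% of mesenchymal cells, whose median depths were 5260, 5577 and 5422 UMIs. Sox8 (chr17:25565892-25570686, minus strand), its relative, was at 62.0 CPM (58.1 to 66.1), 64.6 (60.5 to 69.0) and 59.6 (55.0 to 64.6). The 3 Sox8 intervals overlap, and the log2 ratio of Cdk2-Y15S to Cdk2-WT was -0.05 (-0.20 to 0.09).

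Wt1 (chr2:105126529-105173616, plus strand) encodes a zinc finger factor needed from the first gonad primordium onward. Its level was 298 CPM (289 to 307) in Cdk2-WT Sertoli cells, 291 (282 to 300.0) in Cdk2-HET and 325 (314 to 336) in Cdk2-Y15S. Its log2 ratio of 0.13 (0.06 to 0.19) in Cdk2-Y15S was close to that of Sox9. Gata4 (chr14:63198922-63271692, minus strand), the gonadal GATA factor, was the factor with the lowest ratio. It was at 206 CPM (199 to 213) in Cdk2-WT, 182 (175 to 189) in Cdk2-HET and 176 (167 to 184) in Cdk2-Y15S, with log2 ratios to Cdk2-WT of -0.18 (-0.25 to -0.10) and -0.23 (-0.32 to -0.15). Both mutant libraries thus lay below Cdk2-WT for Gata4 beyond counting error, but 14.3% of all genes had a lower Cdk2-Y15S ratio and 9.77% a lower Cdk2-HET ratio. The Cdk2-Y15S ratio of Gata4 was -0.12 (-0.24 to -0.01) in non-mitotic cells, with 0 or 1 UMI of mitotic genes. With 2 to 4 such UMIs it was -0.48 (-0.73 to -0.24), and with at least 5 it was -0.29 (-0.42 to -0.15). It was -0.08 in the 151 Cdk2-Y15S and 381 Cdk2-WT cells with at least 1000 genes and up to 5% mitochondrial UMIs. With the mitochondrial limit alone (390 Cdk2-WT cells) it was -0.08 (-0.40 to 0.22), an interval that holds the -0.23 of all Sertoli cells. In cells over 5% it was -0.25.

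Nr5a1 (chr2:38692656-38714542, minus strand), the gene of steroidogenic factor 1, was at 83.2 CPM (78.7 to 87.9) in Cdk2-WT Sertoli cells and higher in both other libraries, at 97.8 (92.7 to 103) in Cdk2-HET and 99.1 (93.1 to 105) in Cdk2-Y15S. These are log2 ratios of 0.23 (0.12 to 0.34) and 0.25 (0.13 to 0.37), and 84.4% and 73.8% of all genes had a lower ratio. Nr0b1 (chrX:86191764-86195947, plus strand), whose protein represses NR5A1 targets, differed by less than its counting error: 29.1 CPM (26.4 to 31.9), 28.5 (25.8 to 31.5) and 29.5 (26.3 to 33.0). Dmrt1 (chr19:25505618-25604329, plus strand) was at 120.2 CPM (115 to 126), 135 (129 to 141) and 138 (131 to 145), with log2 ratios of 0.16 (0.07 to 0.26) in Cdk2-HET and 0.20 (0.10 to 0.30) in Cdk2-Y15S. For Dmrt1, 74.2% of all genes had a lower Cdk2-HET ratio and 67.8% a lower Cdk2-Y15S ratio. Counting how many of the 7 factor genes had at least 1 UMI in a cell, the median Sertoli cell had 4 in each library, and 52.9%, 53.8% and 58.3% of Sertoli cells had 4 or more. Among mesenchymal cells 0.0562%, 0.180% and 0.139% had 4 or more.

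Ptgds (chr2:25466709-25470046, minus strand), the gene of lipocalin-type prostaglandin D synthase, was at 993 CPM (977 to 1009) in Cdk2-WT Sertoli cells, 717 (703 to 731) in Cdk2-HET and 383 (372 to 396) in Cdk2-Y15S. The 3 libraries did not overlap in their counting intervals, and the order of the levels followed the number of YS alleles, with 1 library at each step. The log2 ratio to Cdk2-WT was -0.47 (-0.51 to -0.43) in Cdk2-HET and -1.37 (-1.42 to -1.32) in Cdk2-Y15S, a 2.59-fold difference for the latter. Of all genes, 0.263% (23 genes) had a lower Cdk2-Y15S ratio and 1.66% (149 genes) a lower Cdk2-HET ratio.

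Single cells showed that the lower Ptgds level in Cdk2-Y15S ran through the whole range of Sertoli cells. The median Sertoli cell had 5 Ptgds UMIs in Cdk2-WT, 4 in Cdk2-HET and 2 in Cdk2-Y15S. Cells without a Ptgds UMI numbered 122 of 2326, 160 of 2083 and 294 of 1467. Cells with 10 or more made up 22.8%, 12.0% and 2.18%, and the highest cell of each library held 43, 28 and 18 UMIs. At least 1 Ptgds UMI was found in 94.8% (93.8 to 95.6), 92.3% (91.1 to 93.4) and 80.0% (77.8 to 82.0) of Sertoli cells. At 4000 UMIs per cell the expected shares, as the mean over all possible random thinnings, were 93.5%, 87.7% and 69.0%, leaving out 475, 367 and 199 shallower cells. Mesenchymal cells had a Ptgds UMI in 8.55%, 5.98% and 3.15% of cells. In 1 random thinning to the same depth the variance over the mean of the Ptgds counts was 2.15, 2.02 and 1.81, while the other 8 genes lay between 0.987 and 1.28. The mean Ptgds count in that thinning fell in the same library order, down to 1.56 UMIs in Cdk2-Y15S. Among the other 8 genes the highest mean was 1.29 (Wt1 in Cdk2-Y15S). The ratio was not corrected for the mean, so it does not rank genes or libraries by variability. Sox9 had no common order across cells grouped by Ptgds: in Cdk2-WT it was at 343 CPM in cells with 0 Ptgds UMIs, 296 with 1 or 2, 305 with 3 to 9 and 289.9 with 10 or more. In Cdk2-Y15S the same 4 groups held Sox9 at 312, 343, 318 and 362 CPM. The groups numbered 122, 398, 1275 and 531 cells in Cdk2-WT and 294, 571, 570 and 32 in Cdk2-Y15S. They were cut on raw UMIs and not matched for depth, so a relation of Sox9 to Ptgds was not tested.

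**Figure D2:**
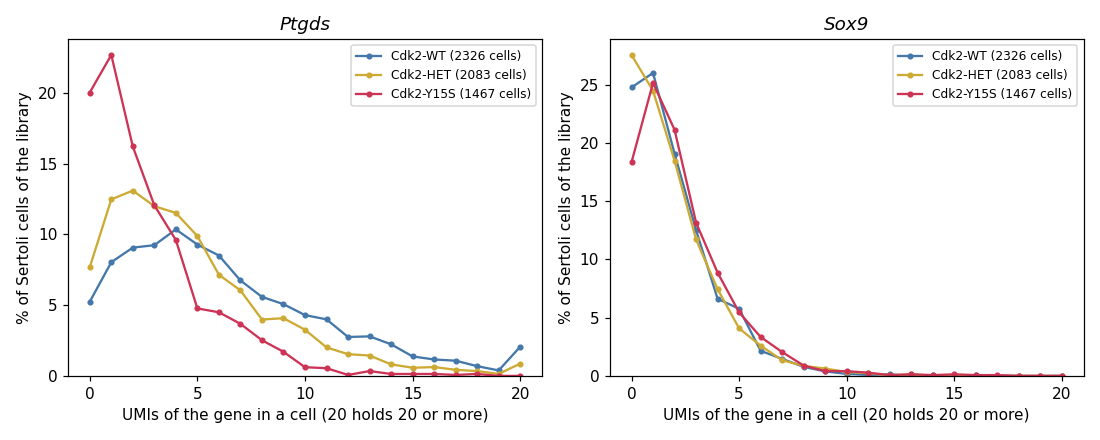
Share of Sertoli cells of each library (y axis, %) against the UMIs of Ptgds (left) or Sox9 (right) in the cell (x axis, cells with 20 or more placed at 20). The Ptgds curve of Cdk2-Y15S peaks at 1 UMI and that of Cdk2-WT at 4, whereas the Sox9 curves differ most at 0 UMIs, with 24.8%, 27.6% and 18.3% of cells.

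Several values that move with a library were set beside the Ptgds difference. Among Sertoli cells with 0 or 1 UMI of 8 mitotic genes the log2 ratio of Cdk2-Y15S to Cdk2-WT was -1.32, and among those with at least 5 it was -1.42. Across Sertoli cells under 4000, of 4000 to 8000 and of at least 8000 UMIs it was -1.33, -1.33 and -1.42, and with up to 5% or over 5% mitochondrial UMIs it was -1.42 and -1.37. Amh, a gate gene, was itself lower in Cdk2-Y15S Sertoli cells (833, 889.5 and 439 CPM, log2 -0.92), and 53, 25 and 24 cells entered the class through Amh alone. With Amh removed from the gate the Ptgds ratio was -1.38, and with a gate of 10 other Sertoli markers, chosen after seeing the data, it was also -1.38. Outside Sertoli cells Ptgds was low. Mesenchymal cells held 16.5, 10.5 and 5.73 CPM, which was 1.66%, 1.47% and 1.49% of the Sertoli level of the same library. Germ cells held Ptgds at 28.0 CPM (wild type) and 13.6 CPM (Cdk2-Y15S), or 2.82% and 3.54% of the Sertoli level. The 10 Sertoli markers outside the gate, summed, stood at 5.26%, 6.17% and 5.63% of their Sertoli level in mesenchymal cells. Over all libraries that mesenchymal sum was 428 CPM, of which Mmd2 was 202 and Aard 162, and no other marker passed 16.7 (Rhox8). In Sertoli cells Mmd2 was at 263 CPM, Aard at 3772 and Rhox8 at 1229, so the share of the Sertoli level differed from marker to marker. The share of free RNA in these values was not tested.

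Fshr (chr17:88984952-89200675, minus strand), the receptor for follicle-stimulating hormone, was at 48.2 CPM (44.8 to 51.8) in Cdk2-WT Sertoli cells, 49.97 (46.3 to 53.8) in Cdk2-HET and 27.2 (24.1 to 30.6) in Cdk2-Y15S. Unlike Ptgds, the heterozygous library overlapped the wild type (log2 0.05, -0.10 to 0.20), and Cdk2-Y15S stood apart from both (log2 -0.82, -1.03 to -0.62, against Cdk2-WT and -0.88, -1.08 to -0.68, against Cdk2-HET). Of all genes, 0.983% (86 genes) had a lower ratio of Cdk2-Y15S to Cdk2-WT. At least 1 Fshr UMI was found in 25.6% (23.9 to 27.4), 27.0% (25.1 to 29.0) and 16.5% (14.6 to 18.5) of Sertoli cells, and in 3 of 1778, 9 of 2225 and 2 of 2159 mesenchymal cells. At 4000 UMIs per cell the expected Sertoli shares were 17.4%, 17.7% and 10.04%. Leydig cells held 0 Fshr UMIs in each library, which allows up to 9.52, 7.30 and 14.1 CPM. Cdk2-Y15S germ cells held 0, which allows up to 2.14 CPM, and Cdk2-WT germ cells held 2 UMIs.

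**Figure D3:**
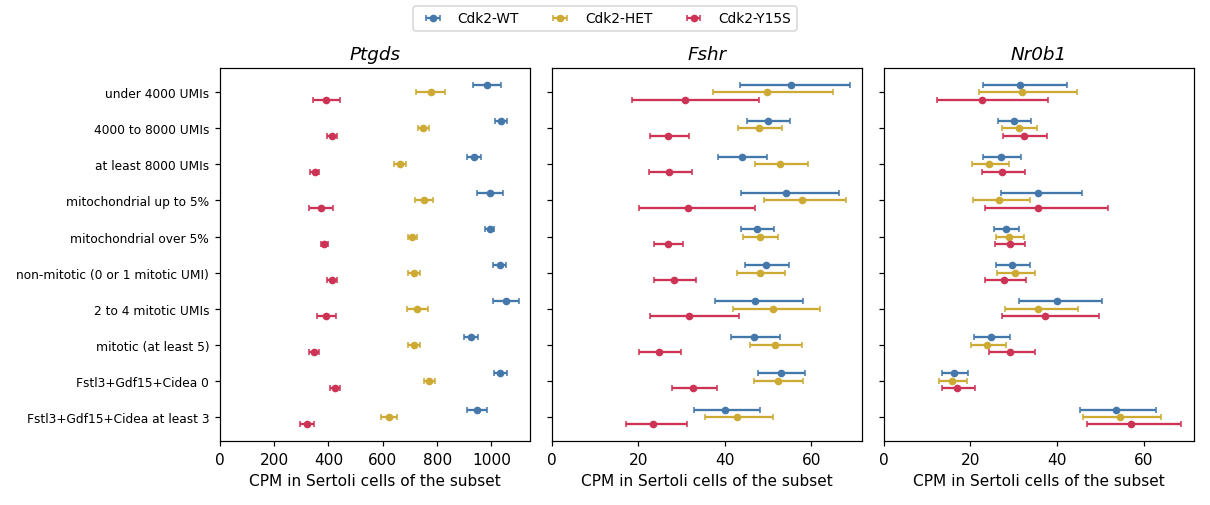
CPM of Ptgds, Fshr and Nr0b1 (x axis, each panel from 0) in subsets of Sertoli cells by depth, mitochondrial share, mitotic UMIs and the summed UMIs of Fstl3, Gdf15 and Cidea (y axis), for each library with 95% counting intervals. Ptgds of Cdk2-Y15S lies below both other libraries in every subset drawn, and Nr0b1 is highest in cells with at least 3 UMIs of Fstl3, Gdf15 and Cidea, at 53.5 to 57.0 CPM.

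Across the cell types, Sox9, Sox8, Fshr and Ptgds were highest in Sertoli cells of every library, and neighbours in the order of the mesenchymal, Leydig and germ cells overlapped in their intervals. For Ptgds the ends of that order did not overlap, as germ cells were above mesenchymal cells in Cdk2-WT (28.0 CPM, 19.4 to 39.2, against 16.5, 14.0 to 19.2) and in Cdk2-Y15S (13.6, 8.16 to 21.2, against 5.73, 4.46 to 7.23). The gates were unequal, because only the mesenchymal class had a limit on Amh, Cldn11 and Inha. Sertoli markers outside the gate, all but Mmd2 and Aard, were also higher in germ cells. Rhox8, for example, stood at 36.7 against 16.7 CPM over all libraries. Whether germ cells make Ptgds was not tested. Sox9 in mesenchymal cells was at 18.0 CPM (15.4 to 20.9), 17.8 (15.5 to 20.2) and 13.7 (11.7 to 16.0). Mesenchymal Sox8 was at 5.83, 4.27 and 4.99 CPM. Both were higher in the smooth-muscle-like myoid cells of the mesenchymal class (at least 10 UMIs of Acta2, Myh11, Tagln and Cnn1). There Sox9 was at 31.5, 26.0 and 21.03 CPM against 12.9, 13.8 and 11.2 in other mesenchymal cells, and Sox8 at 13.1, 9.68 and 12.4 against 3.09, 1.69 and 2.42. Over all mesenchymal cells Sox9 stood at 5.98%, 6.16% and 4.20% of its Sertoli level and Sox8 at 9.40%, 6.60% and 8.37%. The summed Sertoli markers stood at 5.26% to 6.17%, but in mesenchymal cells that sum was mostly Mmd2 and Aard, so it is no measure of Sertoli RNA alone. The source of mesenchymal Sox9 and Sox8 was not tested.

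**Figure D4:**
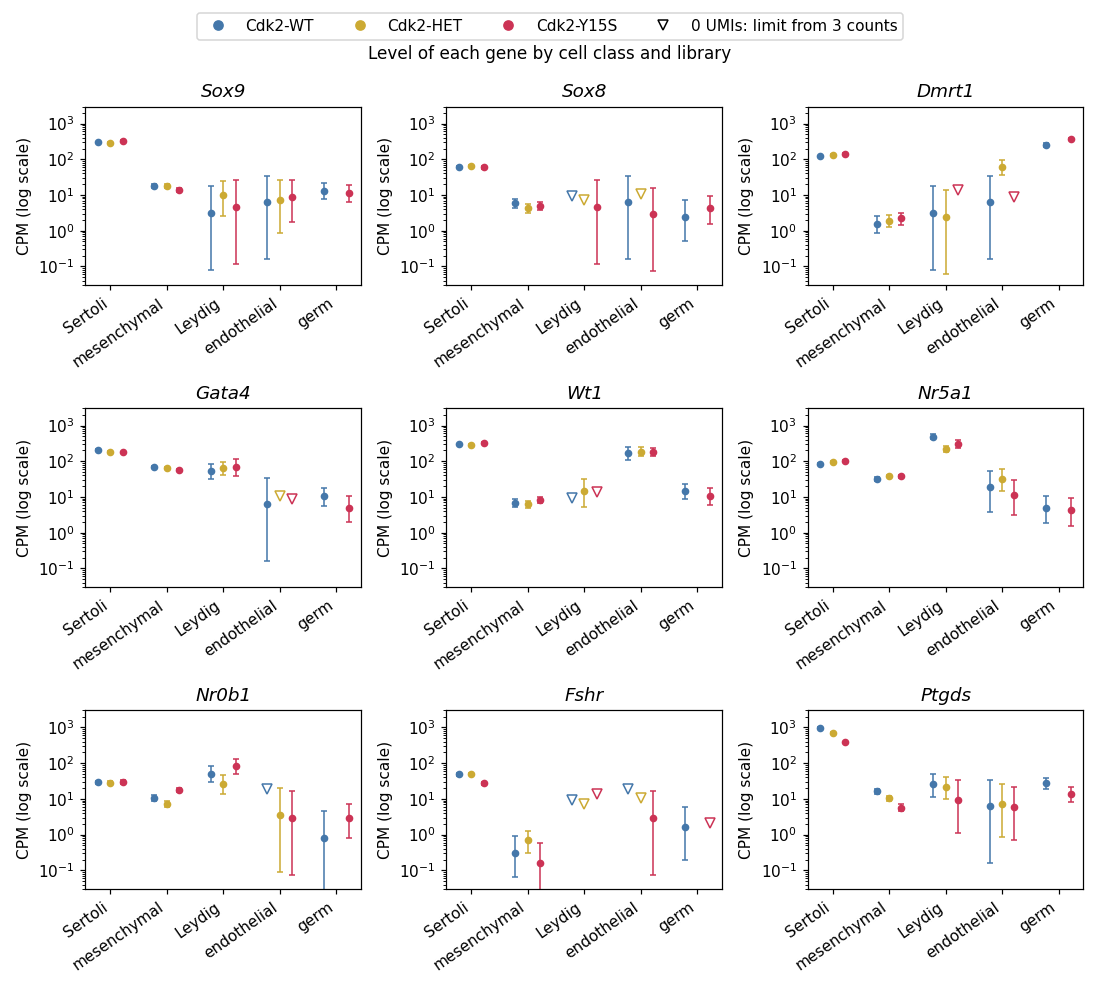
CPM (log axis) of each of the 9 genes by cell class for the 3 libraries, with 95% Poisson intervals; open triangles mark 0 UMIs, at the limit that 3 counts allow, and there is no germ cell point for Cdk2-HET. Sox9, Sox8, Fshr and Ptgds are highest in Sertoli cells, Nr5a1 in Leydig cells and Dmrt1 in germ cells, and Wt1 is high in Sertoli and endothelial cells.

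Gata4 and Nr5a1 were shared between Sertoli and interstitial cells. Mesenchymal Gata4 was at 68.9 CPM (63.8 to 74.3), 65.8 (61.5 to 70.4) and 57.3 (53.1 to 61.7), which was 33.4%, 36.1% and 32.6% of the Sertoli level. Its log2 ratio of Cdk2-Y15S to Cdk2-WT was -0.27 (-0.42 to -0.11), close to the Sertoli value. That of Cdk2-HET to Cdk2-WT was -0.07 (-0.21 to 0.08), against -0.18 (-0.25 to -0.10) in Sertoli cells. In Leydig cells Gata4 was at 53.9, 63.3 and 70.3 CPM, from 15 to 26 UMIs, and did not differ from mesenchymal cells beyond counting error. Mesenchymal Nr5a1 was at 31.5 CPM (28.1 to 35.2), 38.3 (35.04 to 41.8) and 38.1 (34.7 to 41.7), again higher in both mutant libraries, with log2 ratios to Cdk2-WT of 0.28 for each. Leydig cells, which make steroids under NR5A1, held the highest Nr5a1 levels of any class, 482 CPM (409 to 565) in Cdk2-WT, 219 (176 to 269) in Cdk2-HET and 309 (239 to 394) in Cdk2-Y15S. There Cdk2-WT was the highest library, opposite to Sertoli and mesenchymal cells. These Leydig values rest on 152, 90 and 66 UMIs in 43, 41 and 23 cells.

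Nr0b1 was present in Sertoli, Leydig and mesenchymal cells. In Leydig cells it was at 50.8, 26.8 and 84.4 CPM from 16, 11 and 18 UMIs, with log2 ratios of 0.73 (-0.32 to 1.80) for Cdk2-Y15S to Cdk2-WT and 1.63 (0.50 to 2.88) for Cdk2-Y15S to Cdk2-HET. In mesenchymal cells it was at 10.8 CPM (8.87 to 13.1) in Cdk2-WT, 7.31 (5.92 to 8.93) in Cdk2-HET and 17.4 (15.2 to 19.9) in Cdk2-Y15S, a log2 ratio of 0.68 (0.34 to 1.03) for Cdk2-Y15S to Cdk2-WT and 1.25 (0.90 to 1.61) for Cdk2-Y15S to Cdk2-HET. The signal lay outside the myoid cells, at 13.6, 10.5 and 23.1 CPM in other mesenchymal cells against 3.37, 0.708 and 0.956 in myoid cells (9, 3 and 3 UMIs). It was carried by few cells, 72, 64 and 138 with at least 1 UMI. Those cells held the interstitial factor gene Tcf21 at 155, 238 and 238 CPM, against 195, 339 and 316 in mesenchymal cells without Nr0b1. They held Insl3, a Leydig hormone gene, at 2.499, 77.7 and 72.1 CPM against 10.6, 18.8 and 40.6 in the cells without Nr0b1. The part of Leydig RNA in the Nr0b1 difference was not tested.

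Dmrt1 was the member that was highest in germ cells. All 69 Cdk2-WT and all 72 Cdk2-Y15S germ cells held at least 1 Dmrt1 UMI, at 252 CPM (225 to 282) and 368 CPM (337 to 401), above the Sertoli level of the same library. The log2 ratio of Cdk2-Y15S to Cdk2-WT in germ cells was 0.54 (0.34 to 0.75). Most germ cells of the 2 genotypes carry different cluster labels in the deposited table. Cluster A, of Cdk2-WT cells, held Dmrt1 at 214 CPM (178 to 254), and clusters D and E, of Cdk2-Y15S cells, held it at 363 (317 to 413) and 426 (371 to 486). In cluster B, with 28 Cdk2-WT and 6 Cdk2-Y15S cells, Dmrt1 was at 268 CPM (226 to 315) and 249 (176 to 344), so the libraries overlapped there. In cluster C, with 5 and 8 cells, Cdk2-WT was the higher at 454 CPM (311 to 641) against 289 (196 to 410.1), with overlapping intervals. The germ cells had median mitochondrial shares of 11.4% and 10.2% and were used unfiltered. Mesenchymal Dmrt1 was at 1.53, 1.90 and 2.21 CPM.

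Wt1 was also found in another cell type. Cells with at least 5 UMIs of the endothelial genes Pecam1, Cdh5, Egfl7 and Esam held Wt1 at 169 CPM (111 to 245), 184 (137 to 242) and 183 (141 to 234), with at least 1 UMI in 12 of 22, 21 of 38 and 21 of 42 cells. Mesenchymal cells held 6.85, 6.32 and 8.26 CPM, and 3.49%, 3.42% and 4.26% had a Wt1 UMI. Sox9 was represented by 1, 2 and 3 UMIs in all endothelial cells of the 3 libraries, and Gata4 by 1, 0 and 0. The endothelial cells were also limited to 2 UMIs of Amh, Cldn11 and Inha and to 5 of the steroidogenic genes, and cells of the mesenchymal class were left out. Low levels of Sertoli genes in them are thus partly set by the gate. After 3 Cdk2-HET cells with at least 2 germ marker UMIs were left out, a choice made after seeing the data, 53 endothelial cells had Wt1 and 46 had none. The 2 sets held Egfl7 at 1331 and 1336 CPM, Cdh5 at 824 and 877 and Kdr, the VEGF receptor gene, at 647 and 616, while Pecam1 was lower in cells with Wt1, at 523 against 765. Their median depths were 6858 and 4684 UMIs, so the cells with a Wt1 UMI were the deeper. The 3 cells left out held Dmrt1 at 246 CPM from 16 UMIs and Kdr at 0 UMIs, and without them Wt1 in Cdk2-HET was at 236 CPM and endothelial Dmrt1 in Cdk2-HET was 1 UMI in 35 cells.

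Within Sertoli cells, Nr0b1 was the member that varied most with the summed UMIs of Fstl3, Gdf15 and Cidea, a split chosen after looking at these data. Cells with at least 3 UMIs of the 3 genes (330, 318 and 220) held Nr0b1 at 53.5, 54.4 and 57.0 CPM, and cells with 0 (1231, 1079 and 763) held it at 16.3, 15.7 and 16.9, with 765, 686 and 484 cells of 1 or 2 UMIs in between at 33.6, 30.8 and 31.6 CPM. The log2 ratios were 1.71 (1.35 to 2.08), 1.79 (1.42 to 2.17) and 1.75 (1.33 to 2.18), alike in the 3 libraries. In cells of 4000 to 8000 UMIs they were 2.18, 2.26 and 1.86. Sox9 was higher in the same cells by 0.46, 0.43 and 0.59 on the log2 scale, and Nr5a1 by 0.60, 0.43 and 0.22, where the interval of the last (-0.02 to 0.45) includes 0 and the value at 4000 to 8000 UMIs was -0.18. Ptgds was lower in them, with log2 ratios of -0.13, -0.31 and -0.41. The split is a range of a per-cell count and not a cell type.

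Genes around these factors were then described from 5 lists, with values for members with at least 100 UMIs over Cdk2-WT and Cdk2-Y15S Sertoli cells. At that minimum 2.7% of 10052 genes were at least 1.5-fold lower and 6.49% at least 1.5-fold higher in Cdk2-Y15S, and the median log2 ratio of all genes was 0.07. Of 31 other Sertoli and gonadal regulators, 16 could be measured, 1 was that much lower and 2 higher, with a median of 0.25. The SOX factor gene Sox13 was lower in both mutant libraries (22.4, 13.4 and 9.52 CPM, log2 -1.23, -1.58 to -0.91), and Cbx2, a Polycomb gene of male sex determination, was at 9.53, 9.65 and 6.70 CPM. The ETS factor gene Etv5 was among the higher (9.60, 13.6 and 14.7 CPM, log2 0.61, 0.27 to 0.95). Of 11 genes of the ovarian pathway, 4 were measured, none past 1.5-fold: Foxo1 (log2 0.22), Znrf3 (0.26), Ctnnb1 (0.31) and Axin2 (0.32). Foxl2, the granulosa cell factor gene, had 0 UMIs in the Sertoli cells of all libraries. Between Cdk2-HET and Cdk2-WT, where 1.41% of 10191 genes were that much lower and 2.36% higher, 15 of the 31 regulators were measured, 2 were lower (Sox13 at log2 -0.75 and Hes1 at -0.77) and 1 was higher (Esr2, an estrogen receptor gene, at 0.74, 0.36 to 1.13). Hes1 and Esr2 were named after their values were seen.

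Of 20 Sertoli genes known to lie downstream of these factors, 18 were measured, 1 was at least 1.5-fold lower and 1 higher, with a median of 0.05. The 2 lowest were Amh (log2 -0.92) and Hsd17b1, a steroid dehydrogenase gene (373, 379 and 249.6 CPM, log2 -0.58, -0.65 to -0.51). The 2 highest were Tesc (308, 503 and 426 CPM, log2 0.47) and the tight junction gene Cldn11 (68.9, 83.8 and 143 CPM, log2 1.05, 0.94 to 1.17). Amh and Cldn11 are gate genes, so their values in gated cells are partly set by the gate. Of the 22 genes of FSH receptor and cAMP signalling other than Fshr, 18 were measured, 0 were lower and 3 higher past 1.5-fold, with a median of 0.03. Inha, an inhibin subunit gene and the third gate gene, was lowest (2330, 2393 and 1691 CPM, log2 -0.46), then Shbg (log2 -0.25). The kinase subunit gene Prkacb (log2 0.67) and the adenylyl cyclase gene Adcy6 (log2 0.92) were highest, and Prkar2a, named after its value was seen because it completes the 3, was at 0.59. Of 23 genes of the prostaglandin pathway besides Ptgds, 9 were measured and none passed 1.5-fold, with a median of -0.04. They ranged from Cbr1 (56.8, 61.0 and 41.3 CPM, log2 -0.46) and the prostaglandin E synthase gene Ptges (101, 98.4 and 79.2 CPM, log2 -0.35) to Pla2g6 (log2 0.23) and Ptgr1 (log2 0.26). The cyclooxygenase genes Ptgs1 and Ptgs2, which make the substrate of PTGDS, had 1 UMI each in all Sertoli cells together, and the prostaglandin D2 receptor genes Ptgdr and Ptgdr2 had 0.

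The genes whose levels ran most like each member were found by Pearson correlation of log2(CPM + 10) over 11 values, the Sertoli, mesenchymal and Leydig cells of 3 libraries and the germ cells of 2. The search covered the 9630 genes with at least 200 UMIs in Sertoli cells of all libraries together. Genes of germ or Leydig cells with fewer Sertoli UMIs could thus not be named. Amh, the gene nearest to Ptgds, is a Sertoli gate gene, so its pattern over the classes is partly set by the gate. These values share libraries and are a description with no test. Ptgds was nearest to Amh (r = 0.992), Zg16 (0.992) and Dhh, the desert hedgehog gene (0.988), and Fshr to 9630001P10Rik (0.994), Gldn (0.993) and Zg16 (0.991). Sox9 was nearest to Dynlt1a (0.997), Lrrc75b and Neo1, Sox8 to Mro (0.993), Dynlt1a and Cdc42se1, and Wt1 to Gpr37 (0.997), Stxbp6 and Kcng2. Dmrt1 ran with Lama3 (0.996), Sgk3 and Abca2, Gata4 with Maged1 (0.990), Trim35 and Pvrl2, Nr5a1 with Naglu (0.987), Akr1cl and Fuom, and Nr0b1 with Ubxn2b (0.975), Hint2 and Zfp703. Among the members themselves Sox9 was nearest to Wt1 (0.986) and Sox8 (0.984), Ptgds to Fshr (0.986) and Nr5a1 to Nr0b1 (0.933), while Nr5a1 and Sox9 had r = 0.00707.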

How the data were processed

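The deposited counts are whole-number UMIs per gene and cell for 3 pooled 10x 3′ v2 libraries, with no normalization. The tools and build named in the submitters' processing notes are Seurat, Cell Ranger 2.1.0 and mm10, with no role given for each. Library identity came from barcode suffixes named in the labels, and germ cells from the authors' deposited cluster table.

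A cell was kept if it had 500 genes or more and a mitochondrial share of UMIs up to 10%, and if it was not among the doublets called by Scrublet (scanpy 1.11.5, expected rate 6%), which marked 88, 94 and 66 cells. Germ cells were used unfiltered. Classes were set by UMI thresholds, and deposited germ cells were left out of them. Sertoli cells had at least 3 UMIs of Amh, Cldn11 and Inha, at most 2 of Col1a1, Col1a2, Col3a1 and Dcn and at most 5 of Cyp11a1, Cyp17a1 and Hsd3b1. Mesenchymal cells had at least 10 of the collagen set, at most 2 of the Sertoli set and at most 5 of the steroidogenic set. Leydig cells had at least 20 of the steroidogenic set, with no limit on the Sertoli set. The thresholds left 557, 340 and 440 kept cells without a class. UMIs were summed per library and class and divided by all UMIs of those cells (CPM). CPM carry exact Poisson intervals, shares carry Clopper-Pearson intervals, and log2 ratios (0.5 UMI added to each sum) carry conditional exact binomial intervals. A count of 0 was given the limit of 3 counts. Because each genotype has 1 library, no test and no p-value was computed. The ratio script was checked on simulated counts. Python 3.11.15, numpy 2.4.6, scipy 1.17.1 and pandas 2.3.3 were used.

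Genes named beyond the 9 were the 2 highest and 2 lowest ratios of each list among genes with at least 100 UMIs, the 3 nearest patterns of each member, and Amh as a gate gene, apart from those said to be chosen afterwards; some genes that this rule names are not reported here. The members and lists were chosen with earlier results of these data known. The lower Ptgds level in Cdk2-Y15S Sertoli cells was among those results.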

Additional observations from a re-analysis of the deposited data

Results flagged for a closer look

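Sox9 differed between the libraries in opposite directions in Sertoli and mesenchymal cells. The log2 ratio of Cdk2-Y15S to Cdk2-WT was 0.12 in Sertoli cells and -0.39 (-0.70 to -0.08) in mesenchymal cells, and that of Cdk2-Y15S to Cdk2-HET was 0.18 and -0.37. The mesenchymal values rest on 176, 233 and 168 UMIs. For Cdk2-Y15S to Cdk2-WT the ratio was -0.58 (-1.07 to -0.10) in myoid cells and -0.21 (-0.63 to 0.22) in other mesenchymal cells. For Cdk2-Y15S to Cdk2-HET it was -0.30 in each part, with intervals that include 0 (-0.77 to 0.15 and -0.69 to 0.09). Both comparisons share the Cdk2-Y15S library, and the difference between the cell types was not tested.

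Nr5a1 was lower in the Leydig cells of both mutant libraries and higher in their Sertoli and mesenchymal cells. The log2 ratio of Cdk2-Y15S to Cdk2-WT was -0.63 (-1.08 to -0.21) in Leydig cells, 0.25 in Sertoli cells and 0.28 in mesenchymal cells. That of Cdk2-HET to Cdk2-WT was -1.14 (-1.53 to -0.75) in Leydig cells, 0.23 in Sertoli cells and 0.28 in mesenchymal cells. Both comparisons share the 43 Leydig cells of Cdk2-WT, and the difference between the cell types was not tested.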

How the results depend on the processing

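The 18 ratios of the 9 genes in Sertoli cells (Cdk2-Y15S and Cdk2-HET, each to Cdk2-WT) were recomputed under 14 other settings, 13 of them planned, giving 252 values. Of these, 240 moved by less than the counting interval, 12 moved by more, and no ratio whose interval left out 0 changed sign. Ratios near 0 took both signs, such as Nr0b1 in Cdk2-HET (-0.45 to 0.03) and Wt1 in Cdk2-HET (-0.09 to 0.16). The number of members at least 1.5-fold lower in Cdk2-Y15S was 2 under each of the 14. The Ptgds ratio of Cdk2-Y15S to Cdk2-WT, -1.37 as reported, was -1.32 in non-mitotic cells and -1.43 when centred on the median gene, and Fshr ranged from -0.89 to -0.76; the cause was not tested. A stricter cell filter (1000 genes or more, mitochondrial share up to 5%) moved Dmrt1 in Cdk2-Y15S to 0.41. With the mitochondrial limit alone, 151 Cdk2-Y15S and 390 Cdk2-WT cells were left and Dmrt1 was at 0.42 (0.08 to 0.76). That interval holds the 0.20 of all Sertoli cells. The share of all genes at least 1.5-fold lower in Cdk2-Y15S was 3.25% with a minimum of 50 UMIs and 1.29% with 1000, and the share higher was 8.04% and 2.83%. No paired analysis was possible because each genotype has 1 library. Leydig and endothelial values are limited by 22 to 43 cells per library.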
